A study of Mus musculus with 6 samples.

Results

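Genes for splicing factors were followed in mouse oocytes that had grown in culture and in oocytes that had grown in the ovary. The genes were all rows of the deposited table of 10896 genes with a symbol starting with Srsf, Snrp, Sf3, Hnrnp, Prpf or Lsm and a digit, together with Sfpq, U2af1 and U2af2. Snrpn was left out. This rule gave 75 genes, none of which was listed at 0. Oocytes of both groups were at the germinal vesicle stage, the arrest before meiosis resumes, and came from (C57BL x CBA) F1 females. The in vitro group held 3 samples of 50 oocytes that had grown inside follicles isolated with collagenase from the ovaries of females 10 to 12 days old. These follicles had been cultured in medium holding FSH (follicle stimulating hormone), serum and a supplement of insulin, transferrin and selenium. The in vivo group held 3 samples of 50 oocytes released with a needle from the ovaries of females 7 to 11 weeks old, in medium with dbcAMP, a cell-permeable cAMP analogue that holds the arrest. Ovaries of several females were pooled for culture, the culture and the age of the donor cannot be told apart, and cDNA was amplified from 10 ng of total RNA.

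Splicing removes introns from pre-mRNA and is carried out by the spliceosome, which is built anew on each intron from small nuclear ribonucleoproteins (snRNPs) and further proteins. Each snRNP except U6 carries a ring of Sm proteins, U6 carries a ring of LSm proteins, and the SF3a and SF3b complexes hold U2 on the branch point. SR proteins bind exons and mostly favour the use of nearby splice sites, while hnRNP proteins bind nascent RNA and often oppose it. An oocyte transcribes and splices while it grows and stores much of the mRNA that it makes. Transcription stops near the end of growth, so that the level of an mRNA in a fully grown oocyte is mostly a level of stored RNA.

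The authors deposited, for each gene, the mean of the normalised reads in each group and a PPEE. PPEE was taken to be a posterior probability of equal expression, which is not a p-value, and a gene was called where it lay below 0.05. Means are not scaled by gene length, and log2 changes are of in vitro over in vivo, with 0.599 added to each mean as in the deposited ratio. Whole reads of the 3 libraries of each group could be recovered from the means of 56 of the 75 genes and of 8461 genes in all, as described under processing. These libraries are called A, B and C within a group and are not tied to the sample numbers, and values per library are normalised reads. They were compared with limma voom, with p-values adjusted by the Benjamini-Hochberg method over the 8461 genes and called below 0.05. No label says whether samples within a group had separate cultures or donors, so the p-values measure the spread between these libraries, which may be technical.

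By the group means, 54 of the 75 splicing factors were higher in vitro and 21 were lower. Of all 10896 genes, 51.1% were higher in vitro. The authors' deposited table called 12 splicing factors higher in vitro, which is 16% of them, where 6.75% of all genes were called higher. That table called 3 splicing factors lower in vitro, or 4%, where 8.31% of all genes were called lower. The median log2 change of the splicing factors was 0.32, beside 0.02 in all genes. A mean at least 2-fold higher in vitro was seen for 12 splicing factors, with 6.55% of all genes past that fold, and a mean at least 2-fold lower for 0, with 4.52% of all genes.

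Of the 12 genes with a mean at least 2-fold higher, 4 were SR genes, 5 hnRNP genes and 2 LSm genes, and the other was Sfpq. Only 3 of these 12, Srsf2, Sfpq and Hnrnpa0, were called in the authors' deposited table, so they are not the same 12 as those called higher. The genes called lower were subunits of SF3a and SF3b. Srsf2, an SR protein that binds exonic enhancers, had a mean of 167 in vitro and 42.4 in vivo. Sfpq, a paraspeckle and splicing protein of the DBHS family, had a mean of 282 in vitro and 74.1 in vivo. Sf3b3, a large subunit of SF3b, had a mean of 901 in vitro and 1489 in vivo. The tri-snRNP genes Prpf3, Prpf4, Prpf6, Prpf8 and Prpf31 gave no call in the authors' deposited table. In bulk RNA of whole oocytes, fewer cells of a type and less RNA per cell cannot be told apart.

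**Figure D1:**
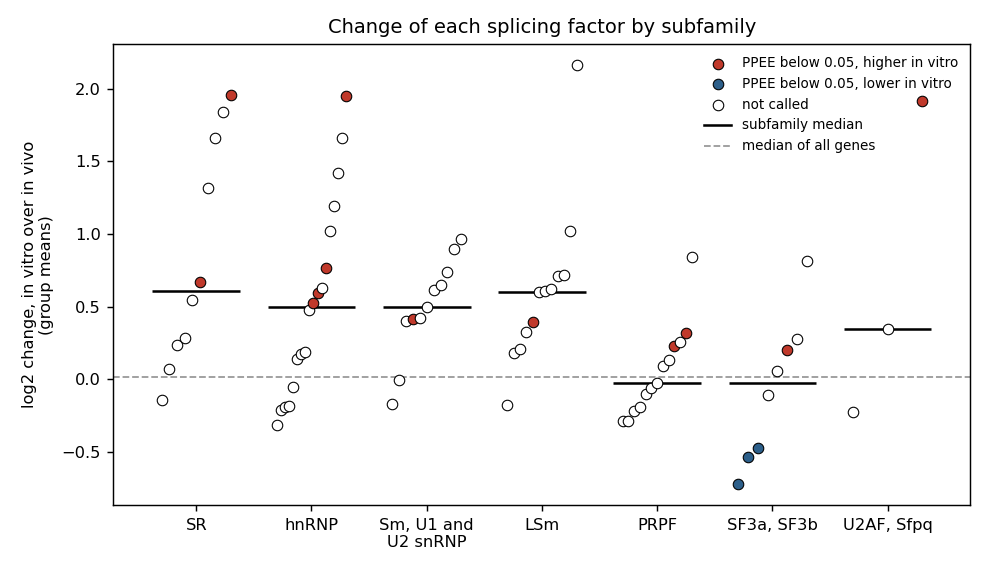
The log2 change of the group means, in vitro over in vivo, is plotted for each of the 75 splicing factors by subfamily, with called genes filled, subfamily medians as bars and the median of all genes as a dashed line. The median is 0.61 in SR genes, 0.50 in hnRNP genes, -0.03 in PRPF genes and -0.03 in SF3a and SF3b genes, and the 3 genes called lower all belong to SF3a and SF3b.

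The change went with the level of the gene. Of 25 splicing factors with a mean over both groups of up to 100 normalised reads, 22 were higher in vitro by the means, with a median log2 change of 0.62, beside 0.06 in all genes of that range. Of 27 between 100 and 500, 18 were higher, with a median of 0.40 beside 0.03 in all such genes. Of 23 above 500, 14 were higher, with a median of 0.14 beside -0.05 in all such genes. The Spearman correlation of the in vivo mean with the log2 change was -0.610 over the 75 genes and -0.184 over all genes. It is given as a description only, since the in vivo mean is part of both quantities. The order of levels was nearly the same in both groups, with a Spearman correlation of 0.969 between the group means over the 75 genes.

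The most abundant of the 75 by group mean was Hnrnpk, which binds C-rich RNA, with 4898 normalised reads in vitro and 4340 in vivo. Sf3b1, the branch point subunit of SF3b, followed with 3149 in vitro and 2746 in vivo. Hnrnpf had 1864 in vitro and 2131 in vivo, Hnrnpa1 1768 and 2011, and Hnrnpc 1652 and 1913, in the same order of groups. Of these, Sf3b1 was called in the authors' deposited table and the hnRNP genes were not. Per kilobase of gene length, Hnrnpk also came first, with a level of 2476 in vitro and 2194 in vivo, followed by Hnrnpa1 with 996 in vitro and 1133 in vivo. The lowest level per kilobase in vitro was that of Prpf19, an ubiquitin ligase of the active spliceosome, with 2.19 in vitro and 1.82 in vivo. The lowest in vivo was that of Hnrnpa0, with 5.87 in vitro and 1.35 in vivo. Those group means have no replicate error, and neighbours in the order were not tested.

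**Figure D2:**
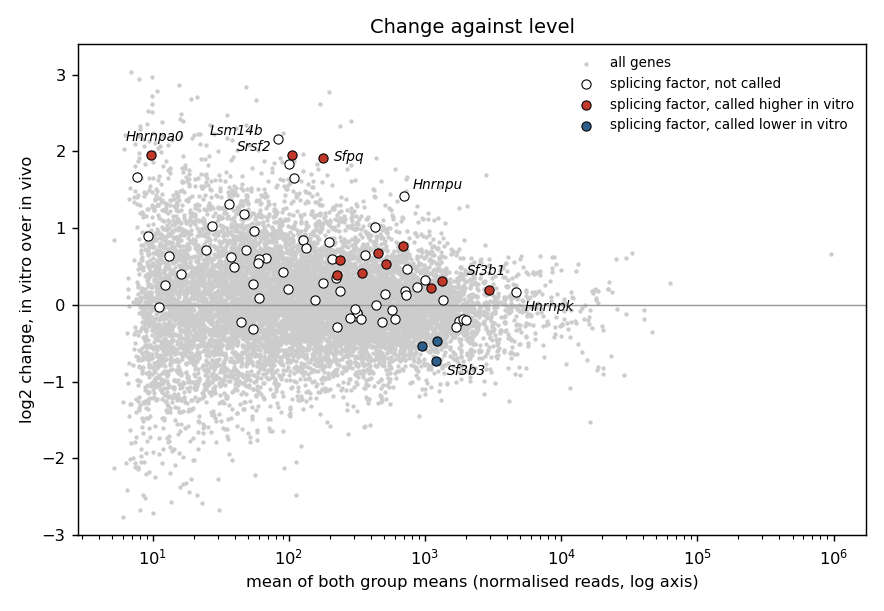
Each splicing factor is plotted by the mean of both group means (x, normalised reads, log axis) and by its log2 change in vitro over in vivo (y), over all genes in grey, of which 7 lie beyond the y axis. The changes above 1.5 on the log2 scale lie at means under 200, while the genes called lower lie near 1000.

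The promoters of a pair of genes called higher and a pair called lower are shown because their genes differ in direction, each from 250 bases before to 50 after the start, 5′ to 3′, from RefSeq with build GRCm38.p6. The deposited values were made on another build, mm9, and no position was carried over. Capitals mark matches to 5 motifs, searched on both strands: CCAAT, the ETS core CCGGAAG, the NRF1 motif in its palindromic form with 1 free base, TATAAA and the GC box GGGCGG. Srsf2 lies at chr11:116853045-116853344 on the minus strand and Sfpq at chr4:127021051-127021350 on the plus strand. Sf3b3 lies at chr8:110846754-110847053 on the minus strand and Sf3a1 at chr11:4160104-4160403 on the plus strand.
Srsf2: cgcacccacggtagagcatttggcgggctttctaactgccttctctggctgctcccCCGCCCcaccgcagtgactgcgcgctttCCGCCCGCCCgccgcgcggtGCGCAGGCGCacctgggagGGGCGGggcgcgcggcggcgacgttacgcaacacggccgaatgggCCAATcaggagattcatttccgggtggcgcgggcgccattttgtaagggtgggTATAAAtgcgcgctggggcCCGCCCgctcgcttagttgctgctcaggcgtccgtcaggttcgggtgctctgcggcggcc
Sfpq: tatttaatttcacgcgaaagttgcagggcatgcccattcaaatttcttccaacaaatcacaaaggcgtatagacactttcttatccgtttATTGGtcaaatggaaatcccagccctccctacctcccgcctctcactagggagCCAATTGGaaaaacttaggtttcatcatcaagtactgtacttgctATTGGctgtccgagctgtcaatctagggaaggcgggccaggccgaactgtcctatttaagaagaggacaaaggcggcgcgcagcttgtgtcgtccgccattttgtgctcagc
Sf3b3: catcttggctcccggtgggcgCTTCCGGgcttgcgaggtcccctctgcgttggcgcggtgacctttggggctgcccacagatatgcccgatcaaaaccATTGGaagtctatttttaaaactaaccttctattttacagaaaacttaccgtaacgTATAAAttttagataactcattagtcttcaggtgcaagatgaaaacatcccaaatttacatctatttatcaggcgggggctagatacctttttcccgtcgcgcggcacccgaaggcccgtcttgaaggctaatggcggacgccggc
Sf3a1: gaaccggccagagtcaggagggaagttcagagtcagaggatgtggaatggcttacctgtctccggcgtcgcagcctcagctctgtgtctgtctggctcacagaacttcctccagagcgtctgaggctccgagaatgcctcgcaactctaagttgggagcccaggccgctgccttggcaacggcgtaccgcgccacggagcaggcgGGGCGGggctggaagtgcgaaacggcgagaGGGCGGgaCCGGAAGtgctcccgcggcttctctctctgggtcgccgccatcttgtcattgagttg

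The Srsf2 window held 5 GC boxes, of which 2 overlap, and 1 match each to CCAAT, NRF1 and TATAAA. The Sfpq window held 4 matches to CCAAT, of which 2 on opposite strands overlap. The Sf3b3 window held 1 match each to the ETS core, CCAAT and TATAAA. The Sf3a1 window held 1 ETS core and 2 GC boxes. Promoters were found for 63 of the 75 genes, 10 of them called higher and 3 called lower, and for 8798 genes of the table. A gene was counted where any of its promoters held the motif. The ETS core was in the promoters of all 3 genes called lower, Sf3a1, Sf3b2 and Sf3b3, and in 1 of the 10 called higher, Snrpb2. It was in 16 of the 50 not called, in 20.8% of the genes of the table and in 8.86% of all RefSeq promoters of this length. Among all genes of the table with promoters, the ETS core was in 22.6% of those called higher and 17.96% of those called lower. That order is the reverse of the order in the splicing factors. CCAAT was in 8 of the 10 called higher, 2 of the 3 called lower and 23 of the 50 not called, beside 44.2% of the genes of the table and 37.4% of all promoters. Over all genes of the table with promoters, CCAAT was in 41.8% of those called higher and 47.2% of those called lower. The NRF1 motif was in 15 of the 63, or 23.8%, beside 12.1% of the genes of the table and 4.60% of all promoters. GC boxes were in 44 of the 63 (69.8%), beside 67.1% of the genes and 35.7% of all promoters. TATAAA was in 6 of the 63 (9.52%), beside 8.90% of the genes and 13.6% of all promoters. These matches describe the letters of the windows and show no binding.

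SR proteins are serine and arginine rich factors that select splice sites. Of the 10 Srsf genes, 9 had a higher mean in vitro, with a median log2 change of 0.61. The authors' deposited table called 2 of them higher and 0 lower, beside 6.75% and 8.31% of all genes. Srsf2 had 74.4 (library A), 240 (B) and 185 (C) normalised reads in vitro, against 41.2 (A), 36.3 (B) and 49.7 (C) in vivo. The same order of libraries is kept for all genes. Every in vitro library lay above every in vivo library, and library A lay far nearer to the in vivo values than B or C did. It averaged 167 ± 84.5 (SD) over the 3 in vitro libraries and 42.4 ± 6.77 over the 3 in vivo libraries, and limma voom gave a log2 change of 1.79 with a standard error of 0.42 and an adjusted p of 0.0228. The PPEE of Srsf2 in the authors' deposited table was 0.0413.

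Srsf1, the founding SR protein, had 65.2, 220 and 189 normalised reads in vitro, against 38.0, 43.4 and 49.7 in vivo. The groups did not overlap, and again library A was the lowest of the in vitro libraries. The limma voom log2 change was 1.65 with a standard error of 0.44 and an adjusted p of 0.0338. The PPEE of Srsf1 in the authors' deposited table was 0.0809, so that it was called by one measure and not by the other. Srsf3, the smallest classical SR protein, had 483, 595 and 572 normalised reads in vitro, against 328, 312 and 395 in vivo. Here the 3 in vitro libraries lay close together and all lay above the in vivo libraries. The log2 change was 0.68 with a standard error of 0.16 and an adjusted p of 0.0224 by limma voom, and the authors' deposited table gave a PPEE of 3.31e-07.

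The other SR genes were not called. Srsf6, an SR protein with a pair of RNA recognition motifs, had 23.0, 72.6 and 60.8 normalised reads in vitro, against 16.2, 27.5 and 18.1 in vivo. In vitro library A lay within the in vivo range, and the adjusted p by limma voom was 0.115. Srsf9 was detected at a low level, with 6.43, 14.5 and 14.9 normalised reads in vitro against 4.04, 2.66 and 3.39 in vivo, and an adjusted p of 0.120 by limma voom. Its groups did not overlap. Srsf4, Srsf7, Srsf10 and Srsf11 had log2 changes of the means between 0.07 and 0.55. Srsf5 alone had a lower mean in vitro, 294 against 325 in vivo, and the authors' deposited table gave a PPEE of 0.923.

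Sfpq had 190, 419 and 236 normalised reads in vitro, against 87.3, 55.8 and 79.1 in vivo. All in vitro libraries, library A included, lay above all in vivo libraries. It averaged 282 ± 121 (SD) over the 3 in vitro libraries and 74.1 ± 16.3 over the 3 in vivo libraries. The limma voom log2 change was 1.86 with a standard error of 0.31 and an adjusted p of 0.0077, the lowest among the 56 splicing factors with recovered reads. The PPEE of Sfpq in the authors' deposited table was 0.00532. The U2AF genes, whose products bind the end of the intron before U2 does, were not called. U2af1 had a mean of 248 in vitro and 195 in vivo, and U2af2 had 41.0 in vitro and 48.1 in vivo.

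**Figure D3:**
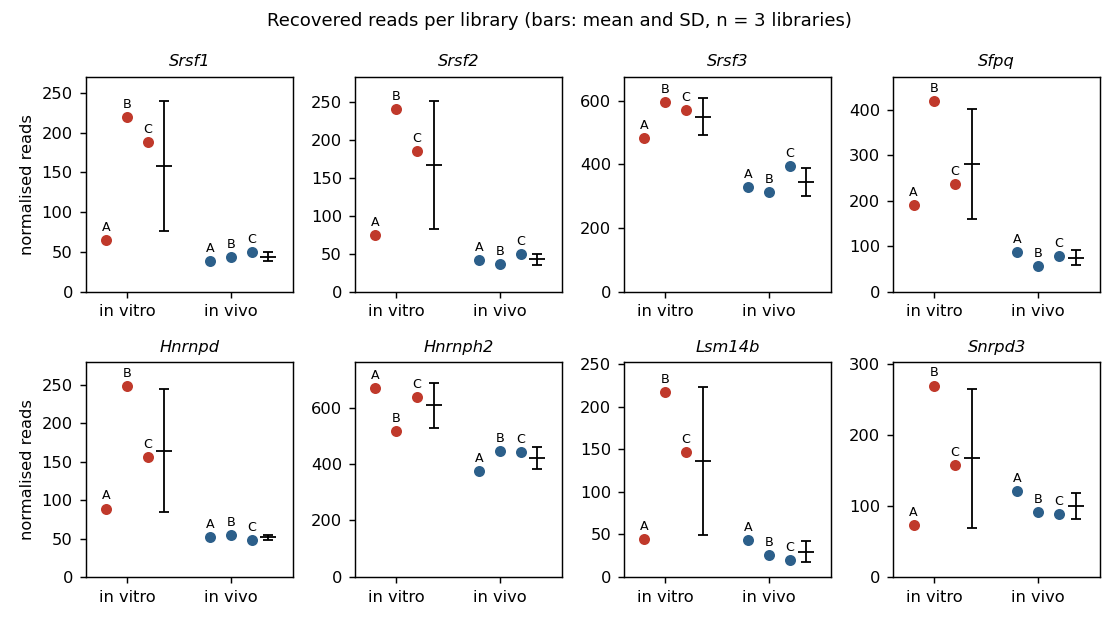
Normalised reads recovered for each library of 8 splicing factors are plotted, in vitro left and in vivo right, with the mean and SD of 3 libraries as bars. In Srsf1, Srsf2, Hnrnpd and Lsm14b in vitro library A lies nearest to the in vivo libraries, while in Hnrnph2 it is the highest.

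hnRNP proteins coat nascent transcripts and influence splicing, export and stability. Of the 18 Hnrnp genes, 13 had a higher mean in vitro, with a median log2 change of 0.50. The authors' deposited table called 4 of them higher and 0 lower, beside 6.75% and 8.31% of all genes. Hnrnpa2b1, a binder of UAG-containing RNA, had a mean of 862 in vitro and 506 in vivo, and the authors' deposited table gave a PPEE of 2.79e-05. Its reads were not recovered, so no error can be given. Hnrnpa0 had 8.27, 16.6 and 22.3 normalised reads in vitro, against 0.81, 4.43 and 5.65 in vivo. The groups did not overlap, though in vivo library A rested on 1 read. The PPEE of Hnrnpa0 was 0.0102 in the authors' deposited table, and the adjusted p by limma voom was 0.0694.

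Hnrnph1 and Hnrnph2 are close relatives that bind runs of G, and reads shared between such copies could have been divided between them. Hnrnph1 had 250 (library A), 333 (B) and 279 (C) normalised reads in vitro, against 179, 155 and 237 in vivo. All in vitro libraries lay above the in vivo libraries, and the PPEE was 0.0252 in the authors' deposited table, beside an adjusted p of 0.0624 by limma voom. Hnrnph2 had 669, 518 and 638 normalised reads in vitro, against 377, 445 and 444 in vivo. The groups did not overlap, and library A was the highest, not the lowest. Limma voom gave a log2 change of 0.53 with a standard error of 0.15 and an adjusted p of 0.0451, and the PPEE was 0.000747 in the authors' deposited table. Hnrnph3, of the same family, had a mean of 48.1 in vitro and 60.0 in vivo and was not called, with an adjusted p of 0.542 by limma voom.

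Hnrnpd, also known as AUF1, binds AU-rich elements of unstable mRNA. It had 89.1, 249 and 156 normalised reads in vitro, against 51.7, 54.9 and 48.6 in vivo. The in vivo libraries lay within a narrow band and every in vitro library lay above it. The log2 change by limma voom was 1.52 with a standard error of 0.36 and an adjusted p of 0.0228, while the authors' deposited table gave a PPEE of 0.0857. Hnrnpab had 32.2, 102 and 63.3 normalised reads in vitro, against 32.3, 24.8 and 28.2 in vivo, with an adjusted p of 0.116. Hnrnpul2 had 291, 796 and 641 in vitro, against 286, 267 and 298 in vivo, with an adjusted p of 0.0730 by limma voom. In both genes in vitro library A lay within the in vivo range, while B and C lay above all in vivo libraries.

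Hnrnpu, a nuclear scaffold protein that binds chromatin-associated RNA, had a mean of 1019 in vitro and 380 in vivo. This ratio of 2.68 was not called, and the authors' deposited table gave a PPEE of 0.302, and its reads were not recovered. Smaller changes were seen in the most abundant hnRNP genes, but not only there. The less abundant Hnrnpdl, Hnrnpm and Hnrnpr had log2 changes between -0.05 and 0.19. Hnrnpa1, Hnrnpc and Hnrnpf had log2 changes between -0.21 and -0.19 and Hnrnpk one of 0.17, none of them called in the authors' deposited table. Related copies of Hnrnpa1 elsewhere in the genome could share its reads, and its value is uncertain for that reason.

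Sm proteins form the ring around the snRNA of U1, U2, U4 and U5. All 7 genes of the ring, Snrpb, Snrpd1, Snrpd2, Snrpd3, Snrpe, Snrpf and Snrpg, had a higher mean in vitro, with log2 changes between 0.40 and 0.96 and a median of 0.65. None was called in the authors' deposited table or by limma voom, where 3 of the 7 had an unadjusted p below 0.05. At that limit 16.4% of all 8461 genes were higher, and 119 of the 603 genes of up to 1000 bases. Snrpd3 had 73.5, 270 and 158 normalised reads in vitro, against 120, 91.2 and 88.1 in vivo. In vitro library A was the lowest of all 6 libraries and library B the highest. Snrpd1 had 356, 667 and 314 in vitro, against 323, 286 and 241 in vivo, and the groups overlapped. Snrpb was the exception, with 108 (library A), 67.4 (B) and 72.0 (C) in vitro against 55.8, 54.9 and 49.7 in vivo. Its groups did not overlap, and its adjusted p was 0.148 by limma voom.

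The proteins that belong to U1 or U2 alone are Snrpa, Snrpc, Snrpa1 and Snrpb2. Snrpb2, the U2 B″ protein, had 359, 460 and 364 normalised reads in vitro, against 270, 308 and 311 in vivo. The groups did not overlap, the PPEE was 0.0489 in the authors' deposited table, and the adjusted p by limma voom was 0.116. Its partner Snrpa1, the U2 A′ protein, had 408, 473 and 432 in vitro, against 438, 430 and 451 in vivo, and the groups overlapped. Snrpa, the U1 A protein, had a mean of 265 in vitro and 298 in vivo, and Snrpc, the U1 C protein, had 104 in vitro and 77.7 in vivo, and neither was called.

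Of the 12 LSm genes, 11 had a higher mean in vitro, with a median log2 change of 0.60. The authors' deposited table called 1 of them higher and 0 lower, beside 6.75% and 8.31% of all genes. Over the 10 LSm genes with recovered reads the median was 0.61, and without in vitro library B it was 0.32. Lsm2 to Lsm7 are shared by the nuclear ring on U6 and the cytoplasmic ring that promotes decapping, and 5 of these 6 genes had a higher mean in vitro with none called. Lsm3 had 155, 374 and 217 normalised reads in vitro, against 196, 164 and 131 in vivo, and the groups overlapped. Lsm6 was the exception, with a mean of 318 in vitro and 360 in vivo. Lsm1, which marks the cytoplasmic ring, had 237, 289 and 242 in vitro, against 203, 200 and 181 in vivo. Its groups did not overlap, and the authors' deposited table gave a PPEE of 0.0124. Limma voom gave an adjusted p of 0.156.

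Lsm14b, a protein of RNA storage granules that meets the naming rule but is no subunit of the spliceosome, had the largest log2 change of the group means among the 75, at 2.16. It had 44.1, 218 and 146 normalised reads in vitro, against 43.7, 25.7 and 20.3 in vivo. In vitro library A was level with in vivo library A, while B and C lay above all in vivo libraries. The log2 change by limma voom was 1.88 with a standard error of 0.57 and an adjusted p of 0.0513, and the PPEE was 0.222 in the authors' deposited table, so that Lsm14b was called by neither. It was called by limma trend, with an adjusted p of 0.0207, by limma voom on genes with means of up to 200 (0.0492) and without in vitro library A (8.4e-05), within a range of adjusted p from 8.4e-05 to 0.157 over its alternatives. Its paralog Lsm14a had a mean of 1114 in vitro and 890 in vivo. Lsm10 and Lsm11, which replace Sm proteins in the U7 snRNP of histone mRNA processing, had log2 changes of 0.18 and 0.21 and were not called.

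SF3a and SF3b make up the part of U2 that grips the branch point. Of the 8 genes, 4 had a higher and 4 a lower mean in vitro, and the median log2 change was -0.03. The calls in the authors' deposited table went 1 higher and 3 lower, beside 6.75% and 8.31% of all genes. Among all genes with a mean above 500, where the called subunits lie, 9.81% were called higher and 13.2% lower. Sf3b3 had a mean of 901 in vitro and 1489 in vivo, or 1.65-fold lower, and the authors' deposited table gave a PPEE of 8.13e-12. Sf3b2, which contacts the intron beside the branch point, had 777 in vitro and 1128 in vivo, or 1.45-fold lower, and the authors' deposited table gave a PPEE of 0.000347. Sf3a1, the scaffold of SF3a, had 1023 in vitro and 1423 in vivo, or 1.39-fold lower, and the authors' deposited table gave a PPEE of 0.0439. None of their partners was called lower. Sf3b1 was 1.15-fold higher, and the authors' deposited table gave a PPEE of 0.00606, and Sf3a3 had 1378 in vitro and 1323 in vivo. Reads could not be recovered for these abundant subunits, so the replicate spread behind the 4 calls is not known here.

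The smaller SF3b subunits could be followed per library. Sf3b5 had 174, 371 and 207 normalised reads in vitro, against 182, 137 and 107 in vivo, with an adjusted p of 0.0982 by limma voom. In vitro library A lay within the in vivo range. Sf3b4 had 276, 285 and 354 in vitro, against 289, 366 and 331 in vivo, and Sf3b6 had 54.2, 78.8 and 44.7 in vitro, against 55.8, 52.3 and 38.4 in vivo. Both pairs of groups overlapped.

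PRPF genes encode a mixed set of pre-mRNA processing factors, many of them of the tri-snRNP of U4, U6 and U5. Of the 13 genes, 6 had a higher and 7 a lower mean in vitro, with a median log2 change of -0.03. The authors' deposited table called 2 of them higher and 0 lower, beside 6.75% and 8.31% of all genes. Prpf38a, a factor of spliceosome activation, had 1193 in vitro and 1020 in vivo, and the authors' deposited table gave a PPEE of 0.00683. Prpf38b had 117, 228 and 148 normalised reads in vitro, against 92.2, 94.8 and 87.0 in vivo. Its groups did not overlap, with an adjusted p of 0.0662 by limma voom. Prpf4b, a kinase of the tri-snRNP, had 224, 158 and 230 in vitro, against 271, 244 and 233 in vivo. It was the only splicing factor with recovered reads whose in vitro libraries all lay below the in vivo libraries, and its adjusted p was 0.287 by limma voom. Prpf6 had 1521 in vitro and 1862 in vivo and Prpf8, the core of U5, had 754 in vitro and 689 in vivo.

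In all, limma voom called 6 of the 56 splicing factors with recovered reads higher in vitro, Sfpq, Srsf1, Srsf2, Srsf3, Hnrnpd and Hnrnph2, which is beside 5.45% of the 8461 genes called higher. It called 0 lower, beside 4.81% of the 8461 genes, and 0 splicing factors were lower at an unadjusted p below 0.05, beside 13.6% of the genes. At an unadjusted p below 0.05, 20 were higher, beside 16.4% of the genes. All in vitro libraries lay above all in vivo libraries in 14 of the 56, where 18.3% of the 8461 genes did so, and all lay below in 1, where 16% did. Of the 12 genes called higher in the authors' deposited table, 8 had recovered reads, beside 6.05% of the 8461 genes called higher in that table. In all 8 the groups did not overlap, but these genes were picked by calls on the same libraries. Their separation is therefore no independent support for the calls. The 3 genes called lower there had no recovered reads, beside 6.94% of the 8461 called lower. The counts by limma voom moved with the library left out, and so did those over all genes. Without in vitro library A, 21 were called higher, beside 15.5% of all genes. Without in vitro library B there were 3, without C 1, without in vivo library A 0, without B 1 and without C 3, beside between 0.0827% and 3.04% of all genes. Sfpq was called in all of these fits except the one without in vivo library A, where its adjusted p was 0.0505.

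The in vitro libraries did not carry the difference equally. Against the in vivo mean, the median log2 change of the 56 genes was 0.15 for library A, 0.66 for B and 0.30 for C, while over all 8461 genes it was 0.01, 0.05 and 0.01 in the same order. Library B was the highest in vitro library in 36 of the 56 genes, or 64.3%, beside 40.5% of all genes, and library A was the lowest in 37, or 66.1%, beside 39.2% of all genes. With all libraries 42 of the 56 had a higher mean in vitro with a median log2 change of 0.51. Without in vitro library B the count was also 42 and the median was 0.24. Without A the median was 0.58 and without C it was 0.56. The subfamilies differed in this. In SR genes the medians were 0.16 in library A, 0.78 in B and 1.12 in C, and in the Sm ring they were 0.24 in A, 1.35 in B and 0.15 in C. In PRPF genes library B was the lowest, with -0.31, beside 0.13 in A and -0.10 in C.

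**Figure D4:**
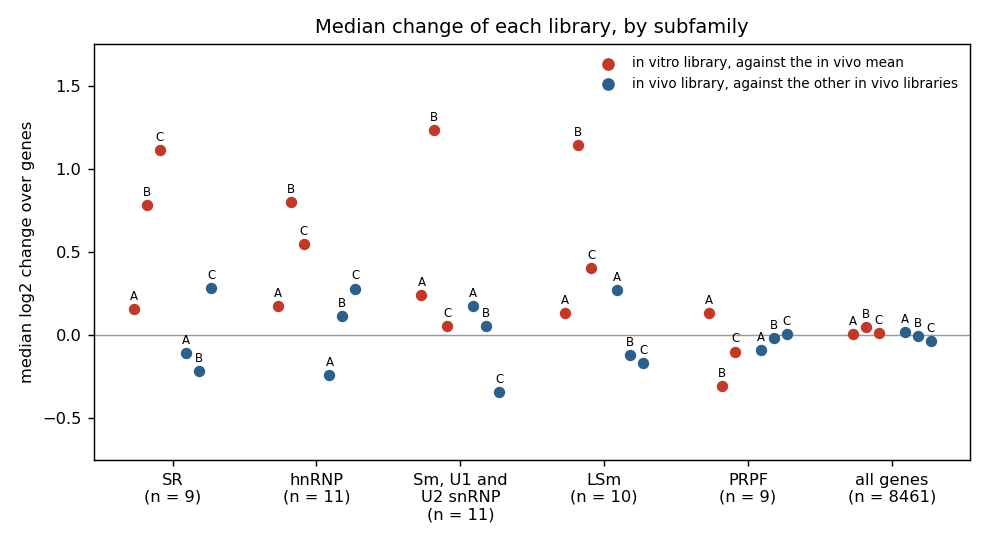
The median log2 change over the genes of a subfamily is plotted for each in vitro library against the in vivo mean and for each in vivo library against the mean of the other in vivo libraries. Library B stands highest in the snRNP and LSm groups, library C in SR genes, and the 6 medians over all 8461 genes lie between -0.03 and 0.05.

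The high values of in vitro library B went with short genes. All 15 splicing factors with a gene length of up to 1000 bases had a higher mean in vitro, with a median log2 change of 0.65, and 0 of them were called. These are mostly Sm and LSm genes. Of all 692 genes of that length, 82.1% had a higher mean in vitro, with a median of 0.40, and 3.03% were called higher. Among short genes with recovered reads, the median log2 change of library B was 1.26 over 14 splicing factors and 0.83 over 603 genes of all kinds. In libraries A and C it was 0.19 and 0.28 over the splicing factors and 0.14 and 0.09 over all short genes. Library B was the highest in vitro library in 14 of the 14 short splicing factors and in 86.6% of all short genes. Without library B the median log2 change of the 7 Sm ring genes was 0.24, beside 0.65 with it, and 5 of the 7 had a higher mean in vitro. Over all 11 snRNP genes the median was 0.23 without library B and 0.50 with it. Short genes also differed between the in vivo libraries, each set against the other in vivo libraries. The medians of in vivo libraries A, B and C were 0.23, 0.03 and -0.30 over all 603 short genes. Over the 14 short splicing factors they were 0.38, -0.08 and -0.42. The part of this length pattern in the values of Sm and LSm genes was not tested.

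The longer splicing factors can be set beside all genes of their length. Of the 60 above 1000 bases, 39 had a higher mean in vitro with a median log2 change of 0.22, beside 49.0% of all such genes and a median of -0.01. Over the 42 with recovered reads the medians were 0.15, 0.39 and 0.30 in libraries A, B and C, where over 7858 genes of that length library B had -0.01 and A and C lay nearer to 0. Without library B the 42 had a median of 0.24 and 30 had a higher mean. SR genes, all longer than 1000 bases, had a median of 0.67 over 9 genes with all libraries and 0.65 without library B.

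**Figure D5:**
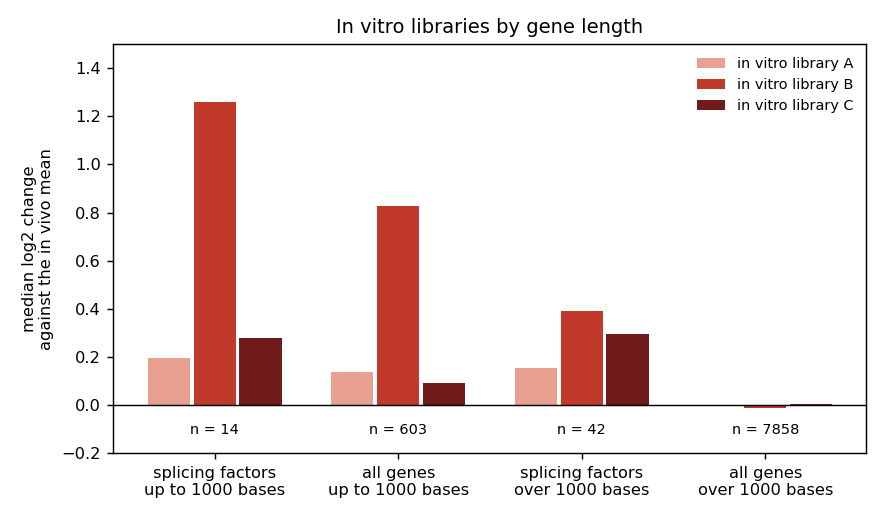
Bars give the median log2 change of each in vitro library against the in vivo mean, for splicing factors and for all genes, split at a gene length of 1000 bases. Library B reaches 1.26 in short splicing factors and 0.83 in all short genes, while in all longer genes the 3 libraries lie near 0.

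Markers of oocytes and of the cells around them were read in the same table. All 10 oocyte markers, among them Zp3 and Gdf9, were present, and the authors' deposited table called 2 of them lower in vitro. Their summed mean was 114741 in vitro and 162978 in vivo. Of 18 granulosa and cumulus markers 9 had a row, and 4 of these were called higher in the authors' deposited table. Of all genes, 6.75% were called higher and 8.31% lower. The summed level of these 9 markers was 424, 548 and 438 normalised reads in vitro, against 299, 283 and 271 in vivo. Every in vitro sum lay above every in vivo sum. The 9 with a row were Cyp11a1, Cyp19a1, Fshr, Hsd3b1, Inha, Inhba, Kitl, Nr5a2 and Ptgs2. Those with no row were Amh, Amhr2, Foxl2, Has2, Inhbb, Nr5a1, Ptx3, Star and Tnfaip6. No row was found for any of 10 theca and stroma markers. Of 6 blood and vessel markers 2 had a row, with a summed mean of 575 in vitro and 860 in vivo. The summed mean of the 75 splicing factors was 39289 in vitro and 36282 in vivo. The part of the granulosa and cumulus signal in the values of the splicing factors was not tested.

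Other genes of the splicing pathway were read from 9 lists of 156 genes, of which 144 had a row. The authors' deposited table called 10 of the 144 higher, or 6.94%, and 10 lower, also 6.94%, beside 6.75% and 8.31% of all genes, and the median log2 change was 0.16. Of 9 genes for kinases of SR proteins and related factors, the authors' deposited table called none. Limma voom called 1 of the 5 with recovered reads higher, beside 5.45% of the 8461 genes. Among 6 further U1 genes, Rbm25 was called higher, with 1733 in vitro and 1017 in vivo, and Luc7l lower. Luc7l had 253, 218 and 282 normalised reads in vitro, against 379, 374 and 353 in vivo, with an adjusted p of 0.0434 by limma voom. Its groups did not overlap.

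Among 16 further genes of U2 and of splice site choice at the end of the intron, 1 was called higher and 4 lower. The 4 are 25% of a small list, beside 8.31% of all genes called lower. Rbm5, a regulator of exon choice and cell death, had 131, 85.0 and 99.3 normalised reads in vitro, against 242, 205 and 251 in vivo, with an adjusted p of 0.0120 by limma voom. The in vitro libraries all lay well below the in vivo libraries. Its relative Rbm10 had a mean of 14.2 in vitro and 33.3 in vivo and was called lower in the authors' deposited table, while Dnajc8 was called higher with 2031 in vitro and 1562 in vivo. Of 14 further U5 and tri-snRNP genes, Aar2, which chaperones Prpf8 in U5 assembly, was called lower in the authors' deposited table. It had 42.3, 16.6 and 27.3 normalised reads in vitro, against 64.7, 66.4 and 41.8 in vivo, with an adjusted p of 0.0751 by limma voom. In vitro library A lay just above in vivo library C, so the groups overlapped. In the minor spliceosome, which removes a rare class of introns, Pdcd7 was called higher, with 1314 in vitro and 607 in vivo.

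Of 28 genes of the Prp19 complex and the catalytic steps, 3 were called higher and 2 lower in the authors' deposited table. Srrm1, an SR-related coactivator, had 391, 593 and 421 normalised reads in vitro, against 204, 238 and 244 in vivo, with an adjusted p of 0.0120 by limma voom. Acin1 had 39.5, 52.9 and 26.1 in vitro, against 19.4, 10.6 and 18.1 in vivo, with an adjusted p of 0.0555. The helicases Ddx41 and Aqr were called lower, Ddx41 with 369 in vitro and 690 in vivo and Aqr with 228 in vitro and 358 in vivo. Limma voom gave adjusted p-values of 0.0180 for Ddx41 and 0.0296 for Aqr, and in both all in vitro libraries lay below the in vivo libraries.

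Of 14 exon junction and mRNA export genes, Ddx39 (703 in vitro and 450 in vivo) and Eif4a3 (1607 in vitro and 1396 in vivo) were called higher in the authors' deposited table. Among 15 genes of snRNP assembly, Ddx20, a helicase of the SMN complex that loads Sm rings, was called higher. It had 23.9, 43.5 and 53.3 normalised reads in vitro, against 12.9, 1.77 and 12.4 in vivo, with an adjusted p of 0.0338 by limma voom. The groups did not overlap. Of 33 other regulators of alternative splicing, Celf1 was called higher and Matr3 and Bclaf1 lower in the authors' deposited table. Celf1 had 495, 463 and 527 normalised reads in vitro, against 333, 240 and 323 in vivo, with an adjusted p of 0.0195 by limma voom. Matr3, which binds RNA together with Sfpq, had a mean of 3291 in vitro and 5313 in vivo, and Bclaf1 had 625 in vitro and 910 in vivo.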

How the data were processed

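RNA sequencing of 3 in vitro and 3 in vivo samples was read from 1 deposited table of 10896 genes. Per the labels' protocols, cDNA was amplified with a SMARTer low input kit, which does not mark strand. Per the submitters' processing notes, BWA was used with build mm9, and its version is not given in the sources used here. The deposited signal is the mean of normalised reads of a group, with scale factors not given in the sources used here. The authors deposited a log2 ratio with in vitro as the divisor, turned round here, and a PPEE, read here as a posterior probability though its tool is not named. Deposited symbols and gene lengths were used as other columns of that table, and all 75 genes had a RefSeq entry.

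Each deposited mean adds up whole reads of 3 libraries, each read weighing 1 fixed step per library. The steps were found from low means, and reads were accepted where means of up to 700 gave exactly 1 solution in both groups at 10 significant digits. This held for 8461 of 8915 genes (94.9%). Of means shifted off these sums, 1.59% gave 1 solution in both groups. At means from 500 to 700, 41.6% of shifted in vitro and 53.5% of shifted in vivo means had 1 solution, so reads of Srsf3, Hnrnph2, Hnrnpul2 and others near that level are less certain. Recovered reads numbered 1044605 to 1571474 per library, part of each library's depth. Size factors were 0.806 to 1.09 in vitro and 0.885 to 1.24 in vivo. The recovery was tested on simulated data. Overlapping and antisense genes could share reads.

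Limma 3.58.1 (R 4.3.3) with voom was run on the recovered reads, 2-sided, and each library size was set from its size factor. On simulated reads with a set spread between libraries, the fit found 14% of 2-fold and 80% of 4-fold changes. A gene that limma voom did not call may therefore still differ. The planned assumption that only group means would be at hand was kept for the PPEE calls. Named genes were all called genes, the 5 largest changes in each direction at a mean of at least 10, the 5 highest means, and up to 2 called genes per direction in each pathway list. One result is not reported here. Others were named from recovered reads after their values were seen. Motifs were searched in RefSeq promoters of GRCm38.p6. Alternatives were other thresholds, pseudocounts, centring, filters, limma trend and libraries left out. The genes and lists were chosen with earlier results of these data known.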

Additional observations from a re-analysis of the deposited data

How the results depend on the processing

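Of the 12 splicing factors called higher in vitro, 6 remained at a PPEE below 0.01, 6 at a fold of at least 1.5, and limma voom on recovered reads called 6 of the 56 that it could test, of which 4 are among the 12. Of the 3 called lower, 1 had a fold of at least 1.5, and limma voom tested none of them and called 0 others. Leaving out 1 library at a time, a choice made after seeing the data for the medians, moved the limma voom count between 0 and 21 and the median log2 change of the 56 genes between 0.24 and 0.58. With limma trend the count was 8, and with genes limited to means of up to 200, added after seeing the data, it was 4. A minimum of 10 reads removed no gene. TMM scaling was not run. No paired analysis was possible because the recovered libraries could not be tied to the sample numbers. Means above 700 give no replicate error.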
